A study of Saccharomyces cerevisiae with 39 samples.

Results

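The 9 genes described here encode the B-type cyclins Clb1, Clb3, Clb4, Clb5 and Clb6 of budding yeast and 4 other regulators of the meiotic divisions, Cdc5, Cdc20, Ama1 and Pds1. They were chosen by their identifiers, YGR108W (CLB1), YDL155W (CLB3), YLR210W (CLB4), YPR120C (CLB5), YGR109C (CLB6), YMR001C (CDC5), YGL116W (CDC20), YGR225W (AMA1) and YDR113C (PDS1), among 6186 features counted. All 9 passed the filter on low counts. Their transcripts were counted in libraries made from poly(A) RNA with a directional kit, from diploid Saccharomyces cerevisiae in sporulation medium, to which 50 µM copper sulphate was added after 3 h, with 3 libraries for each of 13 strains. By the labels the cells were held in early meiosis. They give no collection time.

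Every strain was MATa/alpha, carried hisG insertions in LEU2, HIS3 and TRP1 (leu2::hisG, his3::hisG, trp1::hisG), was lys2 and ura3, and had LYS2 at HO (ho::LYS2). WT had no further change, and pho92_null lacked PHO92 (pho92::HYG). PHO92 encodes a reader protein whose YTH domain binds N6-methyladenosine (m6A) in mRNA. The other 11 strains lacked the endogenous gene (hyg::pho92) and carried at TRP1 an HA-tagged PHO92 driven by the copper-induced CUP1 promoter. The tagged copy was unchanged in CUP1_WT. In W177A it carried a tryptophan-to-alanine substitution in the YTH domain, and in W5A, W18A and W5A_W18A such substitutions near the N terminus. It lacked residues 1 to 70 in del1_70, 28 to 52 in del28_52, 110 to 155 in del110_155, and both 28 to 52 and 130 to 155 in del28_52_130_155. W5A_W18A_del28_52 joined both substitutions with the deletion of 28 to 52. W5A_W18A_del28_52_110_155 adds the deletion of 110 to 155 by its titles, but its genotype line lists the deletions without the substitutions. The labels do not say whether the 3 libraries of a strain came from separate cultures, so p-values measure the spread between these libraries, which may be technical. The CUP1-driven copies were expressed above the endogenous gene: PHO92 stood at 869 ± 40.4 counts per 1000000 counts of the library (CPM) in WT and at 9590 ± 2608 CPM in CUP1_WT (SD, n = 3 each).

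B-type cyclins bind the cyclin-dependent kinase Cdc28 and set which step of the cycle it drives. Clb5 and Clb6 are the S-phase cyclins and are needed for DNA replication before meiosis. Clb1, Clb3 and Clb4 act later, in the meiotic divisions, where the usual mitotic cyclin Clb2 is little used. Cdc5, the polo kinase, takes the cell out of pachytene and lets sister kinetochores attach to the same pole. Cdc20 and the meiosis-specific Ama1 activate the anaphase-promoting complex (APC/C), which marks cyclins and the securin Pds1 for destruction, and Pds1 holds back the protease separase until then. In yeast meiosis many such genes are switched on by the transcription factor Ndt80 through a promoter element called the middle sporulation element (MSE), which the repressor Sum1 also binds.

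The windows from 250 bases before to 50 bases after each start codon were read from the RefSeq R64 genome and searched on both strands for the MSE core CACAAA. The windows of CLB1, CLB5, CDC5, CDC20 and PDS1 held it, 5 of the 9 genes, against 19.3% of all 5518 such windows. The matches are shown because the 9 genes moved together across the strains. Each is given 5′ to 3′ on the coding strand of its gene with 12 bases on either side, and the capitals mark the core, which reads TTTGTG where it lies on the other strand.

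CLB1, chrVII:703524-703553, plus strand: agctgtttagatCACAAAagcgtaattaag
CLB5, chrXVI:775245-775274, minus strand: ttagttgtctcaCACAAAgcaaaataagct
CDC5, chrXIII:271259-271288, minus strand: ttattttttgtaCACAAAaacattggcttt
CDC5, chrXIII:271368-271397, minus strand: tcatccttcaatTTTGTGgcatatactaca
CDC20, chrVII:289704-289733, plus strand: gcgactttgattTTTGTGtccaattggaaa
PDS1, chrIV:681798-681827, minus strand: ttatcgttttcaCACAAAgatctcaaacgc

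The cores began between 80 bases (CLB5) and 249 bases (CDC5) before the start codon. The window of CLB3, CLB4, CLB6 or AMA1 held no match, which says only that these letters are not in those windows. The box ACGCGT of genes induced at the start of S phase, known as MCB, was found in the window of PDS1, 184 bases before its start codon, and in 3.3% of all windows. The sequence there, on the minus strand at chrIV:681784-681813 with the box in capitals, is caaagatctcaaACGCGTcaaaaaactcgt, and it overlaps the PDS1 stretch above. The URS1 core GGCGGC of early meiotic genes and the SCB box CACGAAA, both searched on both strands, were in none of the 9 windows, against 4.8% and 4.28% of all windows. The genome build behind the counts is not given in the sources used here, and the strains' own sequence may differ from the reference.

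Library totals lay between 15928411 and 37186964 counts. Marker genes were read beside the meiotic state named by the labels. The summed level of 15 early meiosis genes was 13220 to 25020 CPM in 38 libraries, the 5 haploid markers summed to 86.8 to 121 CPM and the 4 vegetative growth markers to 48.8 to 144 CPM. The sum of 19 middle meiosis and spore genes ran from 322.5 CPM (del110_155 replicate 3) to 41590 CPM (CUP1_WT replicate 1). In CUP1_WT it was 41590, 26880 and 11070 CPM for replicates 1, 2 and 3, beside early sums of 16330, 21480 and 20950 CPM. These sums do not show that all libraries were at the same stage. The library del110_155 replicate 3 stood apart, with an early meiosis sum of 5377 CPM against 19580 and 20690 CPM in the other libraries of that strain, and the strain order, the ranges of strain means, the correlations over them and the calls in that strain are given with and without it. These are bulk samples, in which fewer cells at a stage and less RNA per cell cannot be told apart.

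Levels of all 9 genes differed among the 13 strains beyond the spread of their libraries in a limma F test (all 9 called at an adjusted p under 0.05, as were 64.5% of the 5840 genes tested). The adjusted p ran from 6.13e-06 for CDC5 to 0.0294 for CLB3. Without del110_155 replicate 3, 8 of the 9 were called. The distance between the highest and the lowest strain mean was 4.32 on the log2 scale for CLB1, 3.88 for CDC5, 3.80 for CLB6, 3.54 for CDC20 and 3.45 for CLB4. It was smaller for PDS1 (1.98), AMA1 (1.64), CLB3 (1.58) and CLB5 (1.54). Without that library the distances were 4.44 for CLB1, 3.495 for CDC5, 3.41 for CDC20, 3.24 for CLB4 and 3.23 for CLB6, and 1.19 (CLB5) to 1.60 (PDS1) for the other 4 genes.

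**Figure D1:**
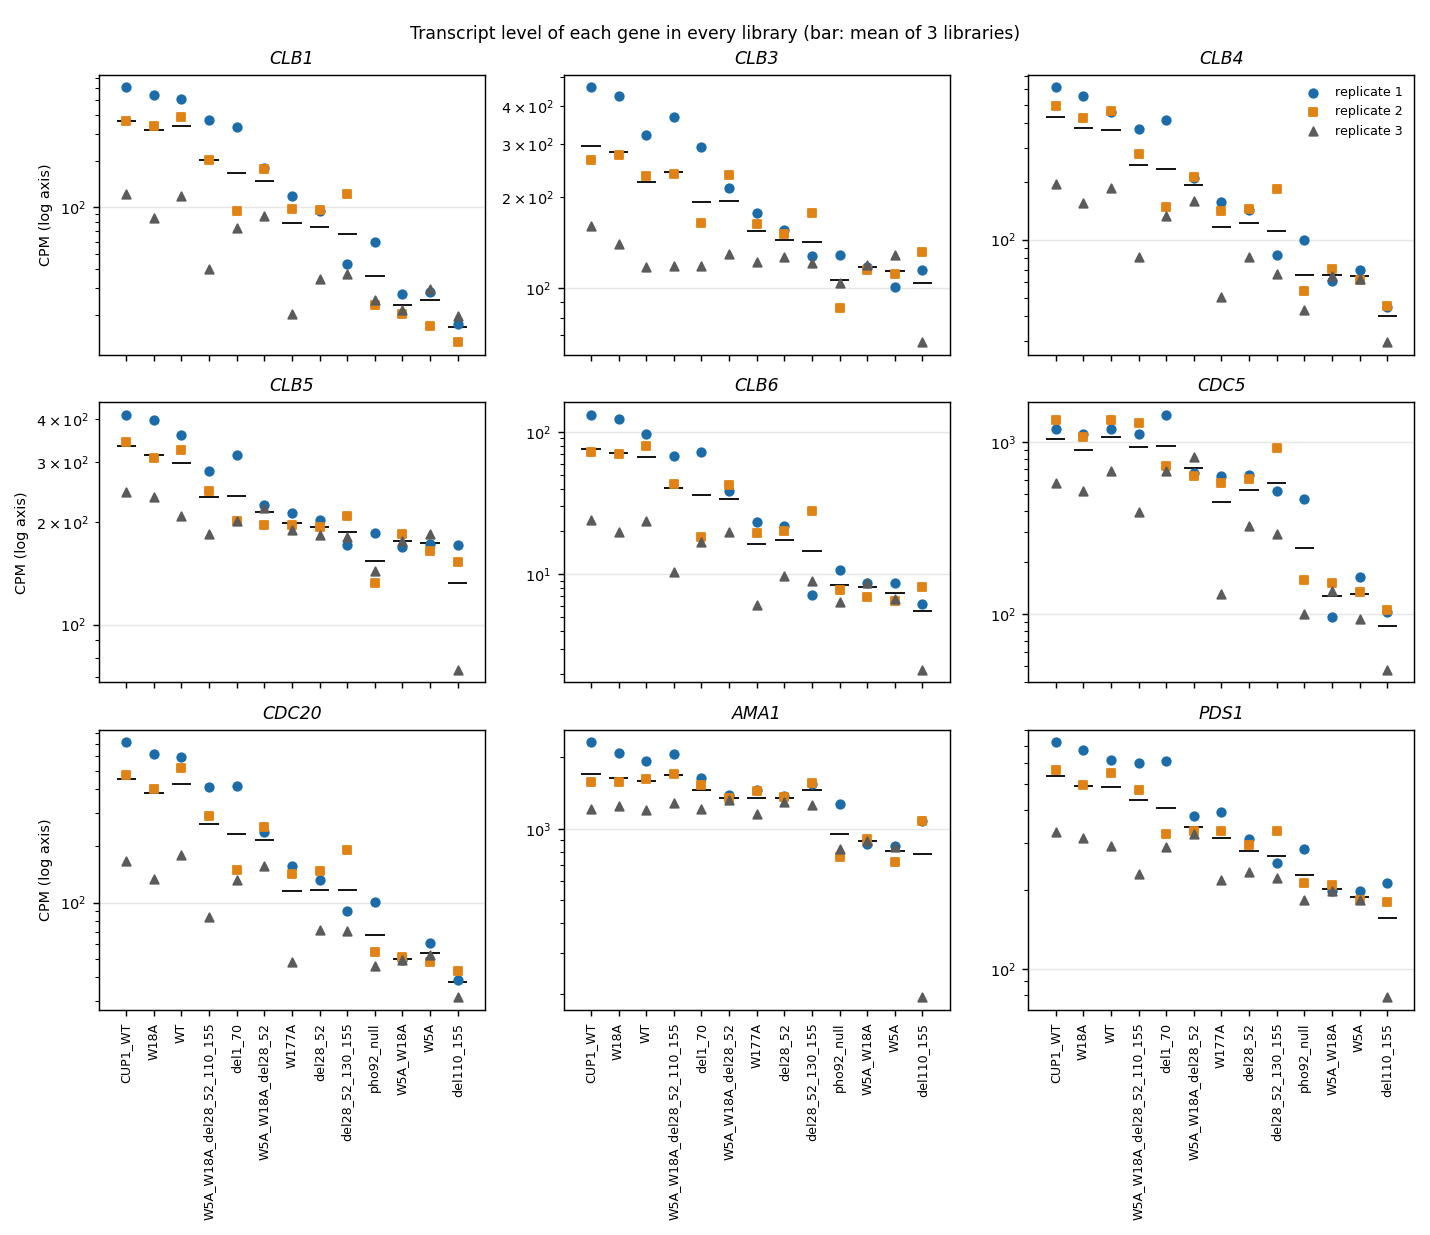
CPM (log axis) of the 9 genes in each of the 39 libraries, with the 13 strains ordered by their mean place over the genes, a marker for each replicate number and a bar at the mean of 3 libraries. CUP1_WT, W18A and WT stand at the left and del110_155 at the right, the lowest strain for 9 genes with its replicate 3 and for 5 without it, and replicate 3 is the lowest library of most of the higher strains.

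The effect of PHO92 itself was asked by comparing WT and CUP1_WT with pho92_null. Most of the 9 genes were higher where PHO92 was present, the cyclin genes CLB1 and CLB6 most, with CLB4, CDC20 and CDC5 close behind and CLB5 and PDS1 less. In CUP1_WT, 8 of the 9 genes were called and all 8 were higher, where 19.2% of all genes tested were called higher. In WT, 7 were called, all higher, against 14.8% of all genes. The median log2 difference of the 9 genes was 2.42 in CUP1_WT and 2.55 in WT, beside -0.03 and -0.035 for all genes. The pho92_null libraries are shared by both comparisons.

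CLB1, the main cyclin of the first meiotic division, had 605, 366 and 123 CPM in CUP1_WT, 511, 388 and 118 CPM in WT and 60.05, 23.3 and 24.9 CPM in pho92_null, for replicates 1, 2 and 3. Every library of the strains with PHO92 lay above every pho92_null library, and replicate 3 was the lowest of the 3 in both strains with PHO92. The log2 difference from pho92_null was 3.29 (SE 0.85, adjusted p = 0.00352 by limma) in CUP1_WT and 3.27 (SE 0.85, adjusted p = 0.00608) in WT.

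CLB4, a partner of CLB1 in the divisions, had 615, 490 and 194 CPM in CUP1_WT, against 100, 54.3 and 43.2 CPM in the libraries of pho92_null. The groups did not overlap, and the log2 difference was 2.74 (SE 0.62, adjusted p = 0.00113 by limma), with 2.60 (SE 0.62) in WT. CLB3, whose protein in yeast is made only in the second division, had 462, 266 and 161 CPM in CUP1_WT against 129, 86.3 and 104 CPM. It was higher in CUP1_WT by a log2 of 1.45 (SE 0.475, adjusted p = 0.017), while in WT, where its lowest library had 118 CPM, the groups overlapped and the difference of 1.12 missed the threshold (adjusted p = 0.0672).

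The S-phase cyclin genes differed in size of change. CLB6 had 132, 72.3 and 24.2 CPM in CUP1_WT, against 10.8, 7.79 and 6.43 CPM in the libraries of pho92_null, a log2 of 2.99 (SE 0.81, adjusted p = 0.0049 by limma). CLB5 had 412, 342 and 245 CPM against 186, 132 and 144 CPM, a log2 of 1.19 (SE 0.29, adjusted p = 0.00242). Both pairs of groups were apart, and the counts of CLB6 as a share of those of CLB5 in the same library were 32.0%, 21.1% and 9.86% in CUP1_WT and 5.82%, 5.88% and 4.48% in pho92_null. These shares did not overlap either. CLB1 and CLB6 are convergent neighbours on chromosome VII with 307 bases between their coding ends in R64, and whether the counting used strand is not given in the sources used here.

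CDC5, the polo kinase gene, had 1196, 1347 and 580 CPM in CUP1_WT, 1201, 1340 and 678 CPM in WT and 465, 158 and 101 CPM in pho92_null. Replicate 1 of pho92_null was well above its replicates 2 and 3, yet below all 6 libraries with PHO92. The log2 differences were 2.42 (SE 0.63, adjusted p = 0.00366 by limma) for CUP1_WT and 2.55 (SE 0.63, adjusted p = 0.00455) for WT.

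Both activators of the APC/C were measured, and the size of their change was not the same. CDC20, which acts at the onset of anaphase, had 713, 476 and 167 CPM in CUP1_WT, against 100, 54.2 and 45.8 CPM in the libraries of pho92_null, with no overlap and a log2 of 2.701 (SE 0.67, adjusted p = 0.00265 by limma). AMA1, which is used only in meiosis and in spore formation, had 2316, 1569 and 1216 CPM in CUP1_WT, against 1271, 759 and 824 CPM in the libraries of pho92_null. Its groups overlapped, because pho92_null replicate 1 lay above CUP1_WT replicate 3, and the log2 of 0.92 (SE 0.41) missed the threshold (adjusted p = 0.0735), as it did in WT at 0.90 (adjusted p = 0.0905). The securin gene PDS1 had 721, 568 and 330 CPM against 286, 212 and 182 CPM, a log2 of 1.296 (SE 0.43, adjusted p = 0.0178).

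Leaving out 1 library moved the 8 called in CUP1_WT to between 6 and 9, and the 7 called in WT to between 4, without WT replicate 1, and 9, without WT replicate 3. WT and CUP1_WT did not differ in any of the 9 genes at the threshold (0 called by limma, 0 at an unadjusted p under 0.05, 0 with limma-voom weights, against 1.66% of all genes), with log2 differences of WT from CUP1_WT between -0.33 and 0.13.

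Per kilobase of coding sequence, the order of the genes within a strain was not the same with and without PHO92. In CUP1_WT, the mean level in CPM per kilobase was 954 for AMA1, 492 for CDC5, 481 for PDS1, 313 for CLB4, 257 for CLB1, 255 for CLB5, 247 for CDC20, 231 for CLB3 and 66.6 for CLB6. In pho92_null it was 534 for AMA1, 202 for PDS1, 118 for CLB5, 114 for CDC5, 83.0 for CLB3, 47.6 for CLB4, 36.4 for CDC20, 25.5 for CLB1 and 7.30 for CLB6. CLB1 and CLB5 thus stood side by side in CUP1_WT, while in pho92_null CLB5 was the more abundant per length. AMA1 was the highest and CLB6 the lowest in both strains.

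**Figure D2:**
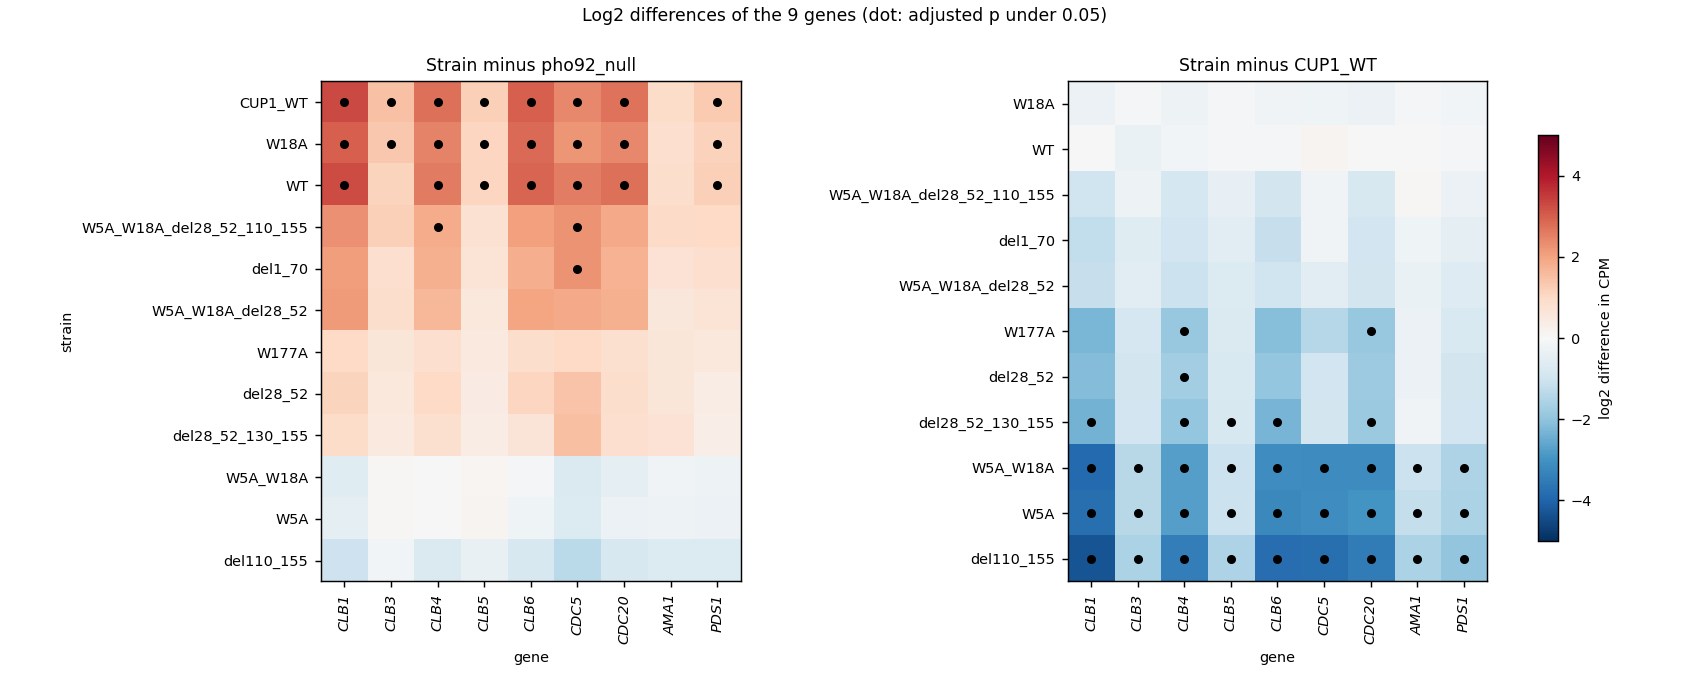
Log2 differences in CPM of the 9 genes (columns) between each strain (lines) and pho92_null (left) or CUP1_WT (right), as a colour scale, with a dot where the adjusted p is under 0.05. Against CUP1_WT all 9 genes are marked in W5A, W5A_W18A and del110_155 and none in W18A and WT.

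The N-terminal substitutions were compared with CUP1_WT to ask which parts of the protein the levels follow. PHO92 transcript levels were not equal among these strains, with 15870 ± 489 CPM in W5A, 16400 ± 2002 CPM in W5A_W18A and 10090 ± 2614 CPM in W18A (SD, n = 3 each), and means from 5193 CPM in W5A_W18A_del28_52_110_155 to 10390 CPM in W177A for the other changed copies. Every library of W5A and W5A_W18A lay above, and every library of W5A_W18A_del28_52_110_155 below, those of CUP1_WT, though PHO92 was not called in any CUP1-driven strain against CUP1_WT (log2 -0.80 to 0.61, limma, lowest adjusted p = 0.272). That fit shares its estimate of the spread with pho92_null, whose libraries had 0.947, 2.42 and 0.0982 CPM of PHO92. It thus does not judge PHO92 by the spread among the CUP1-driven strains alone. In W5A all 9 genes were lower than in CUP1_WT, where 18.1% of all genes tested were called lower, and their median log2 difference was -2.74 beside 0.03 for all genes. In W5A_W18A all 9 were lower as well (16.5% of all genes called lower). In W18A no member passed the threshold (0 called by limma, 0 at an unadjusted p under 0.05 and 0 with limma-voom weights), and 0% of all genes were called. The log2 differences of W18A from CUP1_WT lay between -0.29 and -0.06.

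CLB1 fell to 28.3, 17.0 and 29.3 CPM in W5A and to 27.4, 20.3 and 21.6 CPM in W5A_W18A, while W18A had 538, 341 and 85.1 CPM. The libraries of W5A and W5A_W18A all lay below the lowest of CUP1_WT, 123 CPM, and the log2 differences were -3.78 (SE 0.85, adjusted p = 0.00133 by limma) and -3.90 (SE 0.85, adjusted p = 0.00201). CDC5 had 164, 135 and 93.3 CPM in W5A and 96.0, 151 and 136 CPM in W5A_W18A, against at least 580 CPM in CUP1_WT, log2 differences of -3.09 (SE 0.63, adjusted p = 0.00063) and -3.16 (SE 0.63, adjusted p = 0.00127).

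CDC20 in W5A, at 61.2, 48.1 and 52.5 CPM, was also apart from CUP1_WT, by a log2 of -2.99 (SE 0.67, adjusted p = 0.00135 by limma). AMA1, which had missed the threshold against pho92_null, fell to 846, 724 and 837 CPM in W5A, all below the lowest CUP1_WT library of 1216 CPM, a log2 of -1.185 (SE 0.41, adjusted p = 0.0235). CLB4, CLB6, PDS1, CLB3 and CLB5 were lower in W5A by log2 differences of -2.74, -3.21, -1.60, -1.40 and -1.06, each with groups that did not overlap. Against pho92_null, by contrast, no member passed the threshold in W5A or in W5A_W18A (0 called by limma in each, 0 at an unadjusted p under 0.05, 0 with limma-voom weights), where 14.6% and 10.5% of all genes were called. Their log2 differences from pho92_null ran from -0.74 to 0.13 over both strains.

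In W18A, 8 of the 9 genes were higher than in pho92_null (18.0% of all genes called higher), all but AMA1, with log2 values of the 9 between 0.86 and 3.00. Without W18A replicate 1 the count was 3, and without pho92_null replicate 3 it was 5. The count of 9 for W5A against CUP1_WT was 6 at the lowest, without CUP1_WT replicate 1. That of W5A_W18A was 4 without the same library, which held the highest CUP1_WT level of all the genes but CDC5.

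By strain means del110_155 had the lowest levels of all 9 genes, and without its replicate 3 those of CLB1, CLB4, CLB6, CDC5 and CDC20, while pho92_null was then the lowest for CLB3 and CLB5 and W5A for AMA1 and PDS1. All 9 were lower than in CUP1_WT, where 23.5% of all genes were called lower. CLB1 had 17.4, 13.3 and 19.7 CPM there, below all pho92_null libraries, and its log2 difference from CUP1_WT was -4.32 (SE 0.85, adjusted p = 0.000223 by limma). CDC5 had 103, 106 and 47.4 CPM, a log2 of -3.75 (SE 0.63, adjusted p = 4.1e-05). AMA1 had 1075, 1074 and 195 CPM, so that its log2 of -1.58 (SE 0.41, adjusted p = 0.00281) rests in part on replicate 3, the library with the low early meiosis sum.

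Without that library, 7 of the 9 genes were called, and CLB3 (log2 -1.28, adjusted p = 0.0603 by limma) and AMA1 (log2 -0.755, adjusted p = 0.0593) were not. CLB1 was then lower by a log2 of -4.44 and CDC5 by -3.37. Against pho92_null, no member of del110_155 passed the threshold (0 called by limma, 1 at an unadjusted p under 0.05, 0 with limma-voom weights), where 0.205% of all genes were called.

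W177A, the substitution in the m6A-binding domain, had intermediate levels. CLB4 and CDC20 were lower than in CUP1_WT and the other 7 genes did not pass the threshold, so 2 of 9 were called, where 7.04% of all genes were called lower. CLB4 had 157, 141 and 50.2 CPM in W177A, all below the lowest CUP1_WT library of 194 CPM, a log2 of -1.91 (SE 0.62, adjusted p = 0.0286 by limma). CDC20 had 156, 143 and 48.4 CPM, also apart from CUP1_WT, a log2 of -1.91 (SE 0.67, adjusted p = 0.0423). CLB1 at 119, 98.1 and 20.3 CPM was apart from CUP1_WT too but missed the threshold (log2 -2.28, SE 0.85, adjusted p = 0.0555).

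These 2 calls rest on few libraries. The count was 0 without W177A replicate 3, CUP1_WT replicate 1 or CUP1_WT replicate 2, and 0 when only these strains were fitted. It was 4 without W18A replicate 1, W18A replicate 3, W5A_W18A_del28_52_110_155 replicate 3 or del110_155 replicate 3, and 6 without CUP1_WT replicate 3. Against pho92_null, 0 of the 9 genes were called in W177A (0 at an unadjusted p under 0.05, 0 with limma-voom weights), where 4.83% of all genes were.

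The direct comparison of both kinds of substitution showed CDC5 lower in W5A than in W177A, as the 1 gene of the 9 called, where 16.9% of all genes were called lower. CDC5 had 632, 578 and 131 CPM in W177A against 164, 135 and 93.3 CPM in W5A, a log2 of -1.66 (SE 0.63, adjusted p = 0.0406 by limma). The ranges overlapped because of W177A replicate 3. The other 8 log2 differences lay between -1.50 and -0.34. The call was lost without W177A replicate 1 or 2 or any of the 3 W5A libraries, and 2 genes were called without W177A replicate 3 or del110_155 replicate 3.

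The strains del28_52 and del28_52_130_155 had levels near those of W177A. In del28_52_130_155, CLB1, CLB4, CLB5, CLB6 and CDC20 were lower than in CUP1_WT, 5 of the 9 genes, where 9.18% of all genes were called lower, with log2 differences from -2.375 (CLB1) to -0.81 (CLB5). CLB6 had 7.18, 27.7 and 8.94 CPM there, and its replicate 2 overlapped CUP1_WT replicate 3. None of the 5 was called without del28_52_130_155 replicate 1 or 3 or without CUP1_WT replicate 1 or 2, and 2 or 3 were called without any of 14 others. In del28_52, CLB4 alone was called lower (141.9, 144.2 and 81.1 CPM, log2 -1.735, SE 0.62, adjusted p = 0.0481 by limma), where 8.27% of all genes were.

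Same-numbered libraries of del28_52 and CUP1_WT deviated together, and with the replicate number as a block 7 genes were lower in del28_52, all but CDC5 and AMA1, where 17.2% of all genes were called lower with the block. Without the block, that CLB4 call was lost in 25 of the 39 fits that left out 1 library, and 7 genes were called without CUP1_WT replicate 3. Against pho92_null, 0 of the 9 genes were called in del28_52 and in del28_52_130_155 (1 at an unadjusted p under 0.05 in each, 0 with limma-voom weights), where 4.50% and 3.42% of all genes were called. With the block, CDC5 was called higher in del28_52 (log2 1.445, adjusted p = 0.0251 by limma), where 5.74% of all genes were called higher. Without pho92_null replicate 1, 1 gene was called in each.

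In del1_70, which lacks both N-terminal tryptophans with the residues between and after them, the means of the 9 genes were nearer to those of CUP1_WT than in W5A. None was called against CUP1_WT (0 called by limma, 0 at an unadjusted p under 0.05, 0 with limma-voom weights), where 9.26% of all genes were. CDC5 had 1446, 727 and 676 CPM in del1_70, every library above the highest of pho92_null, and was called higher by a log2 of 2.26 (SE 0.63, adjusted p = 0.0227 by limma), as the 1 gene of 9, where 3.78% of all genes were called higher. The call was lost without del1_70 replicate 1, pho92_null replicate 2 or pho92_null replicate 3. It was joined by 1 or 2 more genes without W18A replicate 3, del1_70 replicate 3, W5A_W18A_del28_52_110_155 replicate 3, del110_155 replicate 3, pho92_null replicate 1 or CUP1_WT replicate 3.

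The strains that join changes stood above W5A_W18A in level, a difference that was not tested directly. CLB1 had 180, 178 and 88.3 CPM in W5A_W18A_del28_52, against at most 27.4 CPM in W5A_W18A and 95.3, 95.7 and 34.5 CPM in del28_52. CDC5 had 660, 636 and 818 CPM in W5A_W18A_del28_52, against at most 151 CPM in W5A_W18A and 649, 615 and 324 CPM in del28_52. For both genes every library of the combined strain thus lay above every W5A_W18A library. Each also lay above every pho92_null library, which had at most 60.05 CPM of CLB1 and 465 CPM of CDC5. The median log2 difference of the 9 genes from pho92_null was 1.665, beside 0.007 for all genes. In this strain 0 of the 9 genes were called against CUP1_WT (1 at an unadjusted p under 0.05, 0 with limma-voom weights) and 0 against pho92_null (5 at an unadjusted p under 0.05, 0 with limma-voom weights), where 11.5% and 0.925% of all genes were called.

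Same-numbered libraries of W5A_W18A_del28_52 and pho92_null deviated together, and with the block 5 genes, CLB1, CLB4, CLB6, CDC5 and CDC20, were higher than in pho92_null, where 5.87% of all genes were called higher with the block. Without the block 1 gene was called without pho92_null replicate 1, and against CUP1_WT 1 gene was called without CUP1_WT replicate 3. In W5A_W18A_del28_52_110_155, CLB4 and CDC5 were higher than in pho92_null (log2 1.87 and 2.23, limma, adjusted p = 0.0466 and 0.022), 2 of 9, where 4.32% of all genes were called higher. The groups overlapped for both, because replicate 3 of that strain lay at 81.7 CPM of CLB4 and 394 CPM of CDC5. The count was 8 without that replicate 3, 5 without del110_155 replicate 3 or pho92_null replicate 1, 0 without replicate 1 or 2 of the strain or pho92_null replicate 2 or 3, and 1 in 17 other fits without a library. Against CUP1_WT, 0 genes were called (0 at an unadjusted p under 0.05, 0 with limma-voom weights), where 13.0% of all genes were.

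Whether W5A_W18A and del28_52 add up was tested by the departure of W5A_W18A_del28_52 from the sum of both changes on the log2 scale. CLB1, CLB4, CLB6, CDC5, CDC20 and PDS1 lay above the sum, 6 of the 9 genes, where 8.87% of all genes were called above it. For CLB1 the separate log2 differences from CUP1_WT were -3.90 and -2.165, their sum -6.06, and the combined strain stood at -1.14 (SE 0.85). The departure was 4.92 (SE 1.20, adjusted p = 0.0197 by limma). For CDC5, at -3.16 and -0.97 apart and -0.54 together, it was 3.59 (SE 0.89, adjusted p = 0.0198). For all 9 genes the sum lay further below CUP1_WT than pho92_null did. CUP1_WT stood above pho92_null by a log2 of 3.29 for CLB1 and 2.42 for CDC5, beside sums of -6.06 and -4.13. A strain at the pho92_null level would thus also lie above the sum. The departure alone therefore does not show whether the changes offset each other, which was not tested. W5A_W18A_del28_52 itself stood above pho92_null by a log2 of 2.15 (SE 0.85) for CLB1 and 1.88 (SE 0.63) for CDC5, neither called without the block.

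For CLB3, CLB5 and AMA1 the departures of 1.74 (SE 0.67), 1.19 (SE 0.41) and 1.06 (SE 0.58) missed the threshold, with adjusted p of 0.0808, 0.0547 and 0.228. The median departure of the 9 genes was 3.415, beside -0.05 for all genes. The calls depend on single libraries, since 0 of the 9 were called without del28_52 replicate 3, CUP1_WT replicate 1 or CUP1_WT replicate 2.

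**Figure D3:**
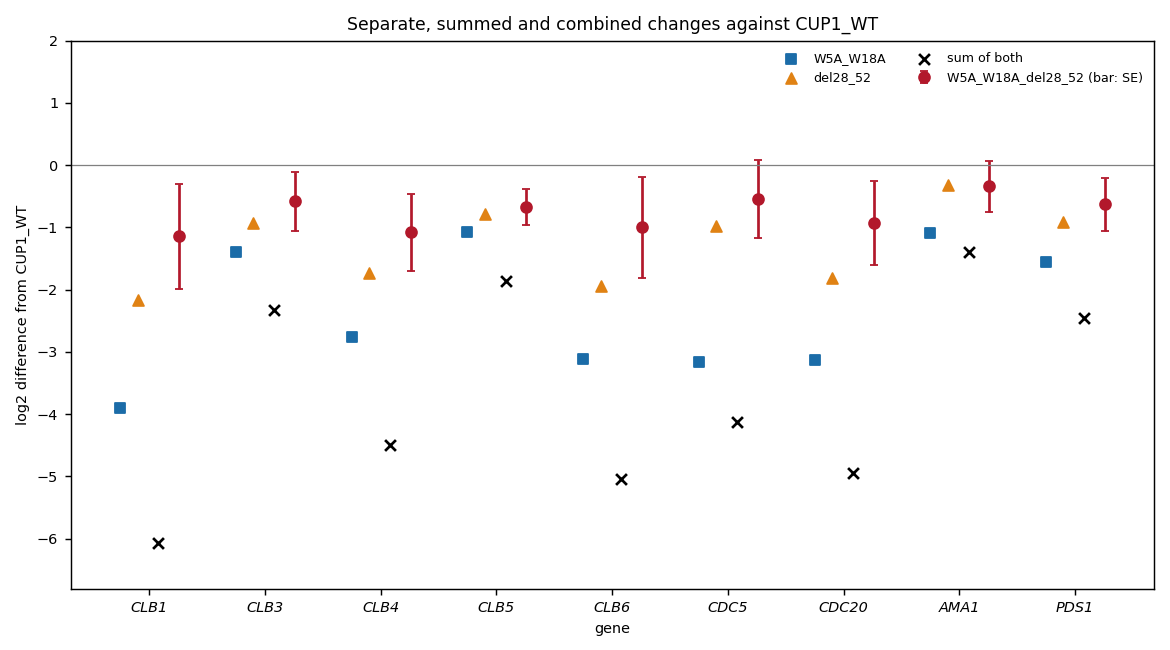
Log2 differences from CUP1_WT of the 9 genes in W5A_W18A (squares), in del28_52 (triangles), as the sum of both (crosses) and in W5A_W18A_del28_52 (circles, bars for the standard error). For each gene the circle lies above the cross, by 1.06 for AMA1 up to 4.92 for CLB1, and it also lies above the square of W5A_W18A alone.

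Over the 12 strains compared with pho92_null, 26 of 108 comparisons of a member were called, all 26 higher, where 6.36% of the comparisons of all genes were called higher. Over the 11 strains compared with CUP1_WT, 35 of 99 were called, all 35 lower, against 8.56% of all genes. Each family shares its control libraries, so these calls are not independent of each other.

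The order of the strains was close to the same for each gene. CUP1_WT was the first or second for every gene. The last was del110_155 for 9 genes with its replicate 3 and for 5 without it, where it held places 10 to 13. W18A held places 2 to 5, WT places 1 to 4 and W5A_W18A_del28_52_110_155 places 2 to 5 of 13. W177A and del28_52 held places 7 to 9, del28_52_130_155 places 6 to 9, and pho92_null, W5A and W5A_W18A places 10 to 12. Without that library pho92_null held places 10 to 13 and W5A places 11 to 13, and the other strains named here kept their places. Neighbours in the order were mostly within each other's spread: of 108 pairs of neighbouring strains over the 9 genes, those whose ranges did not overlap numbered 7, and 6 without that library.

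The sister genes CLB4 and CLB3 also shifted against each other. CLB4 counts were 133%, 184.5% and 120.5% of those of CLB3 in CUP1_WT, 77.5%, 62.9% and 41.4% in pho92_null and 68.5%, 55.3% and 48.7% in W5A. The shares of CUP1_WT did not overlap those of pho92_null or W5A. In del110_155 CLB4 stood at 39.2%, 34.6% and 44.3% of CLB3.

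Strain means of the 9 genes ran together on the log2 scale. Pearson's r over the 13 strain means was 0.886 (CLB6 with AMA1) to 0.999 (CLB1 with CDC20) over the pairs of members, as a description of strains that share libraries and depth. Without del110_155 replicate 3 it was 0.848 (CLB5 with AMA1) to 0.998 (CLB1 with CDC20). By the rule for the most alike genes among 5234, CLB1 and CDC20 were both closest to STE4, the beta subunit of the pheromone-response G protein, at r = 0.999. CLB4 was closest to CDC23, a subunit of the APC/C (r = 0.998), and PDS1 to APC9, another such subunit (r = 0.997). CDC5 was closest to MUM3 and SPO75, both used in spore formation (r = 0.997 each), CLB6 to IRC10 (0.998), CLB5 to SAM50 (0.995), AMA1 to AFR1 (0.991) and CLB3 to THI74 and YSP2 (0.989 each). For these pairs r was 0.976 or more without that library.

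The level of NDT80, the transcription factor of middle meiosis, moved with the 9 genes. It had 1468, 1208 and 681 CPM in CUP1_WT, 517, 157 and 158 CPM in pho92_null and 204, 124 and 143 CPM in W5A. NDT80 was lower in W5A than in CUP1_WT by a log2 of -2.94 (SE 0.63, adjusted p = 0.000941 by limma) and higher in CUP1_WT than in pho92_null by 2.28 (SE 0.63, adjusted p = 0.00585). Over 13 strain means its r with the members was 0.908 (CLB5) to 0.996 (CDC5), while that of IME1, the activator of early meiosis, was 0.431 to 0.760. With PHO92 itself r was -0.545 to -0.24 over the 11 CUP1-driven strains. Without del110_155 replicate 3 these ranges were 0.882 to 0.983 for NDT80, 0.254 to 0.615 for IME1 and -0.742 to -0.343 for PHO92. The part of NDT80 and of the PHO92 level in the levels of the 9 genes was not tested.

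**Figure D4:**
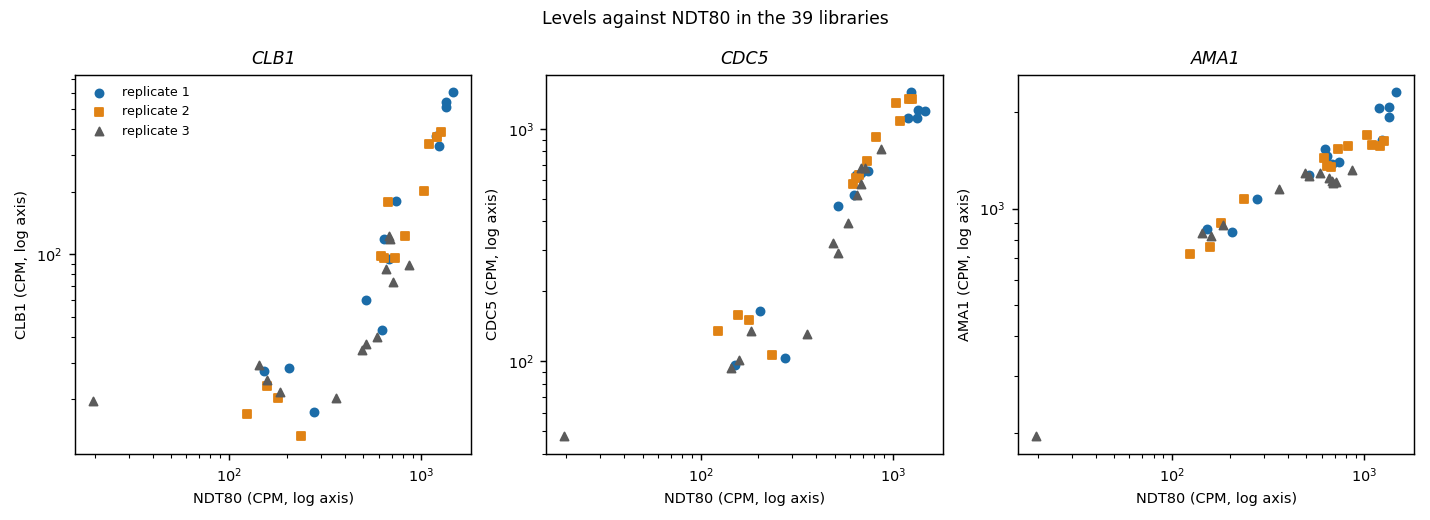
CPM of CLB1, CDC5 and AMA1 against CPM of NDT80 in the 39 libraries (both axes logarithmic), with a marker for each replicate number. All 3 genes are high where NDT80 is high, and the point at the far left is del110_155 replicate 3 with 19.6 CPM of NDT80.

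Among other genes of the same machinery, those of the APC/C followed the 9 genes most. Of 21 APC/C subunits and regulators, 17 were higher in CUP1_WT than in pho92_null and 0 lower, with a median log2 of 1.29 beside -0.03 for all genes, and 15 were lower in W5A than in CUP1_WT (median -1.47). Of all genes, 19.2% and 18.1% were called in those directions. CDC26, a small subunit, was higher in CUP1_WT by a log2 of 2.69 (SE 0.63, adjusted p = 0.0016 by limma) and lower in W5A by -2.74 (SE 0.63, adjusted p = 0.00166). APC5 and the scaffold subunit APC1 were higher in CUP1_WT by 2.04 and 1.94. Of the 6 spindle checkpoint genes in that list, MPS1, MAD3 and MAD2 were higher in CUP1_WT by 1.61, 0.64 and 0.46 (adjusted p = 0.00609, 0.00254 and 0.0286 by limma). MPS1 and MAD3 were lower in W5A by -1.92 and -0.73, where MAD2 was not called (log2 -0.34, adjusted p = 0.107). MAD1, BUB1 and BUB3 were not called in either comparison, with log2 differences between -0.31 and 0.15.

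Of 14 genes of the kinase Cdc28 and its regulators, 5 were higher in CUP1_WT than in pho92_null and 2 lower, with a median log2 of -0.09. Of all genes, 19.2% were called higher there. CDC28 itself was higher by 0.99 (SE 0.26, adjusted p = 0.00379 by limma) and CAK1, which activates it, by 1.03 (SE 0.32, adjusted p = 0.0129). The G1 cyclin gene CLN1 was lower by -1.72 (SE 0.30, adjusted p = 7.96e-05), opposite to the B-type cyclins. SIC1 was lower by -0.45 (SE 0.13, adjusted p = 0.00741 by limma). The mitotic cyclin gene CLB2 was called in the same directions as the 9 genes, higher in CUP1_WT by 0.70 and lower in W5A by -1.15, at a mean of 29.7 CPM in CUP1_WT. Of the 14 genes, 3 were higher and 6 lower in W5A than in CUP1_WT (median -0.27), where 18.1% of all genes were called lower.

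Of 19 partners in chromosome segregation, 8 were higher in CUP1_WT than in pho92_null and 0 lower, and 9 were lower in W5A than in CUP1_WT. The list medians were 0.48 and -0.40, and 19.2% and 18.1% of all genes were called in those directions. SPO12, a regulator of mitotic exit, MAM1 of the monopolin complex and SGO1, the shugoshin that guards centromeric cohesin, were higher by 2.52, 1.96 and 1.82. ESP1, the separase that Pds1 holds back, was not called there (log2 0.505, adjusted p = 0.107 by limma) but was lower in W5A by -0.94 (SE 0.25, adjusted p = 0.00469). The meiotic cohesin gene REC8 was not called in either (log2 -0.34 and -0.155, adjusted p = 0.359 and 0.698).

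Of 19 other genes of middle meiosis and spore formation, 18 were higher in CUP1_WT than in pho92_null and all 19 were lower in W5A than in CUP1_WT, with medians of 3.11 and -3.91. The shares of all genes called in those directions were 19.2% and 18.1%. SMK1, a kinase of spore wall formation, was higher by 4.24 (SE 1.15, adjusted p = 0.00506 by limma). Of 15 early meiosis genes 1, IME2, was called in each comparison (higher in CUP1_WT by 0.98, lower in W5A by -1.27), with a list median of 0.03 in CUP1_WT and -0.44 in W5A. The medians of all genes were -0.03 and 0.03. Of the 4 vegetative growth markers, 1 was higher in CUP1_WT than in pho92_null and all 4 were lower in W5A than in CUP1_WT, with sums of 48.8 to 88.6 CPM in W5A, 83.7 to 136 CPM in CUP1_WT and 78.4 to 118 CPM in pho92_null. Of the 5 haploid markers, 2 were higher and 1 lower in CUP1_WT than in pho92_null, and 1 was higher and 1 lower in W5A than in CUP1_WT. The pheromone genes MFA1 and MFA2 reached at most 1.45 and 1.05 CPM in any library. The part of these markers in the levels of the 9 genes was not tested.

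**Figure D5:**
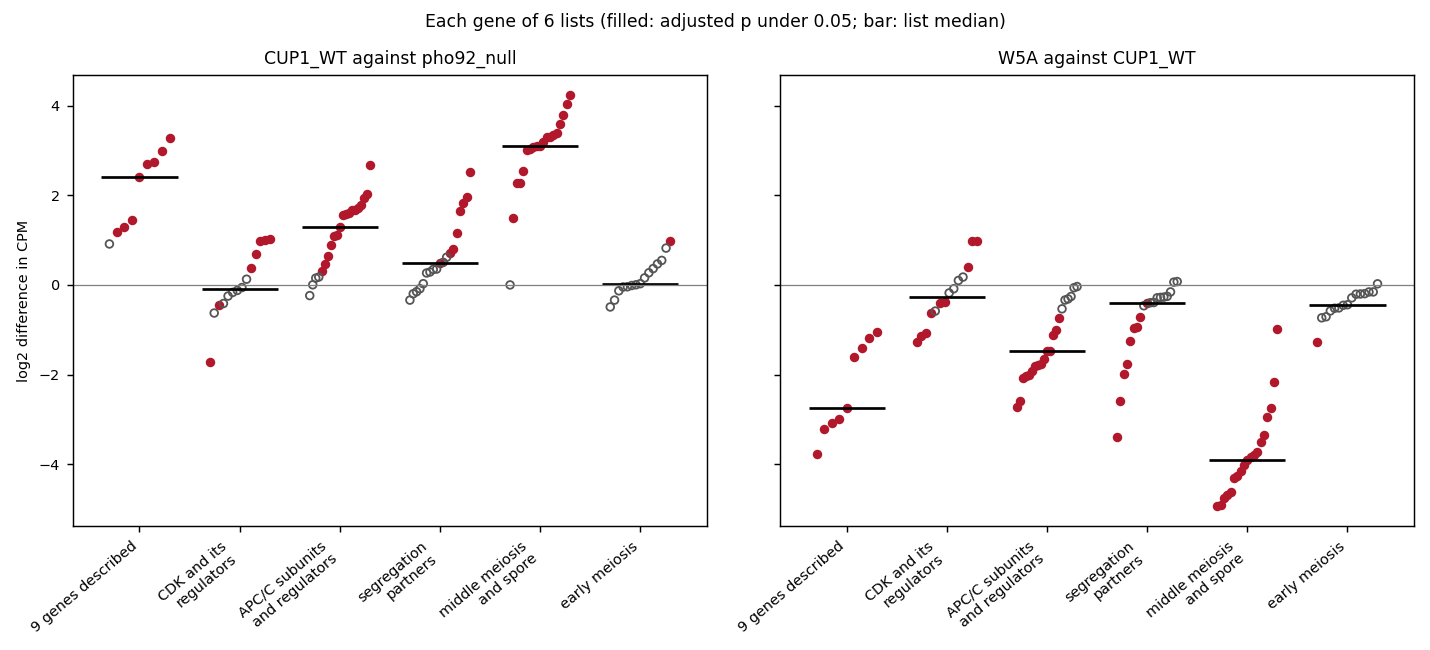
Log2 differences in CPM of each gene in 6 lists for CUP1_WT against pho92_null (left) and W5A against CUP1_WT (right), filled where the adjusted p is under 0.05, with a bar at each list's median. The 9 genes described all lie above 0 on the left and below it on the right, and the early meiosis medians are 0.03 and -0.44.

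Levels of all 9 genes also differed by replicate number. In the fit with the number as a block, replicate 3 was lower than replicate 1 in all 9, where 25.2% of all genes were called lower. The log2 differences ran from -1.61 for CLB1 (SE 0.28, adjusted p = 3.43e-05 by limma) and -1.55 for CLB6 to -0.54 for CLB5 (SE 0.10, adjusted p = 6.5e-05). In CPM without TMM scaling, replicate 3 was below replicate 1 in 10 to 12 of the 13 strains, depending on the gene. The count was 10 for CLB5 and 12 for CLB4, CLB6, AMA1, CDC20 and PDS1. W5A_W18A was the most frequent exception, for 7 of the 9 genes. With TMM scaling some small differences change sign, so these counts do not all hold on the scale of the fit. For CLB5 in W5A, replicates 1 and 3 had 172.5 and 184.3 CPM but a scaled log2 CPM of 7.38 and 7.355. All 9 stayed called when any library was left out. With the replicate number fitted without strain, 8 of the 9 were called, where 26.5% of all genes were called in either direction.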

How the data were processed

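The deposited table gives the authors' counts for 6186 features in the 39 libraries, after 46 lines of headings and annotations, and was tested to hold whole numbers in all feature cells. Because each column also holds the authors' annotation values, the column as a whole was not treated as a plain count column, and the planned count test was replaced by limma (version 3.58.1, R version 4.3.3). Per the submitters' processing notes, STAR 2.7.10a, RSEM 1.3.1 and DESeq2 1.48.1 are listed, with no role given. The aligner's settings, the genome build and whether strand was used are not given in the sources used here.

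Features with at least 10 counts, at the rate of the median library, in at least 3 libraries and 15 counts in total were kept, which left 5840. Library sizes were scaled with TMM (trimmed mean of M-values), and log2 counts per 1000000 (CPM) were taken with a prior count of 2, which understates the differences of low genes. The fit was limma-trend over the 39 libraries with a coefficient per strain. Benjamini-Hochberg adjustment ran over the 5840 genes of a comparison, and calls needed an adjusted p under 0.05. CPM printed per library are counts over the library total, without TMM scaling or the prior count. With 15928411 counts in the smallest library, the spread between libraries and not counting error sets the precision. The code was tested on simulated data.

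The members, the other gene lists and the motifs were chosen with earlier results of these data known. The text names PHO92, the 9 members, for each list up to 3 genes called in each direction in CUP1_WT against pho92_null and up to 2 in W5A against CUP1_WT, and the genes most alike to each member over strain means among genes of at least 10 CPM. NDT80, IME1, MAD1, MAD2, MAD3, MPS1, BUB1, BUB3, ESP1 and REC8 were named outside that rule, after their values were seen.

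Replicate numbers come from the titles. Deviations from strain means had a mean correlation of 0.286 for the same number (166 of 234 pairs over 0.1, lowest -0.456) and -0.139 for different numbers, so the numbers do not pair all strains. For 9 of the 24 comparisons of 2 strains all 3 same-numbered pairs exceeded 0.1, and there the blocked count is given where it changes by over 1.5 times. Of 39 pairs of libraries of a strain, none were within sampling noise of each other. Other settings were size factors by the median of ratios (RLE), no filter, a prior count of 0.5, limma-voom weights, the block, only the strains compared, each library left out and, added after the data were seen, only libraries numbered 1 and 2 and, for strain means, the set without del110_155 replicate 3. Names and sequences come from RefSeq R64, which matched 5630 of the features.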

Additional observations from a re-analysis of the deposited data

Results flagged for a closer look

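The effect of the 28 to 52 deletion differed with and without the W5A and W18A substitutions, by the interaction term of the limma fit, for 6 of the 9 genes. Its log2 effect in the presence of both substitutions, minus its effect in their absence, was 4.92 for CLB1, 4.04 for CLB6, 4.01 for CDC20, 3.59 for CDC5, 3.42 for CLB4 and 1.83 for PDS1. With the substitutions present, the deletion went with higher means (log2 2.755 for CLB1 and 2.62 for CDC5), which were not tested directly. Without them it went with lower means (-2.165 and -0.97), which were not called without the block (adjusted p = 0.0701 and 0.27 by limma). With the block CLB1 was called (adjusted p = 0.00539 by limma) and CDC5 was not (adjusted p = 0.0624). The change of sign itself was thus not tested. For all 9 genes the sum of the separate changes lay below the pho92_null level. The adjusted p-values of the 6 interaction terms lay between 0.0183 (CDC20) and 0.0449 (PDS1). None of the 6 was called without del28_52 replicate 3, CUP1_WT replicate 1 or CUP1_WT replicate 2, and 8 of the 9 genes were with the replicate block, where 15.6% of all genes were called above the sum.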

How the results depend on the processing

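Of the 77 member differences called, 495 of 521 recomputed values stayed called under alternatives other than leaving out a library. Without 1 library 674 of 795 did, and 0 changed sign in either kind. Under the former 25 of the 77 lost the call at least once, and without 1 library 39 did. Strain differences were refitted only without libraries of the strains involved. The 9 replicate differences were refitted without each of the 39 libraries and stayed called each time, which raises the share that stayed called. RLE size factors, no filter, a prior count of 0.5 and limma-voom weights moved no count by over 1.5 times. With the replicate block, calls over the 12 strains against pho92_null rose from 26 to 50 (11.2% of those of all genes higher), those of W177A against CUP1_WT from 2 to 8 (15.0% of all genes lower) and those of W5A against W177A from 1 to 5 (23.7% lower). With only the strains compared, calls against pho92_null were 16 and against CUP1_WT 23 (35 in the fit of all strains), where each fit has fewer samples. The shares of all genes called in the single comparisons ran from 0.0171% to 16.6% and from 0% to 31.2%. W177A against CUP1_WT then had 0 (10.5% of all genes) and W5A against W177A 3 of 9 (36.8%, so not above all genes). With only libraries numbered 1 and 2 these counts were 49, 57, 8 and 7, in that order. The shares of all genes there were 0.0172% to 47.2%, 0% to 49%, 26.9% and 41.4%. Leaving out 1 library gave 4 to 9 for WT against pho92_null, 0 to 6 for W177A against CUP1_WT, 0 to 2 for W5A against W177A, 0 to 8 for the departure from the sum, 18 to 36 against pho92_null (lowest without replicate 2 of pho92_null, highest without its replicate 1) and 18 to 48 against CUP1_WT (lowest without replicate 1 of CUP1_WT, highest without its replicate 3). The cause of these moves was not tested. The F test and the replicate comparison have no fit of only the strains compared, and the latter no fit without replicate 3. The block changed no other count of the report by over 1.5 times except where it is given beside the result, for del1_70 (1 to 7, 12.7% of all genes higher), W5A_W18A_del28_52_110_155 (2 to 9, 14.3%) and del28_52_130_155 (0 to 1, CDC5, 3.49%) against pho92_null, and for W5A_W18A_del28_52 against CUP1_WT (0 to 2, CLB4 and CLB5, 8.30% lower). With 3 libraries a strain, the differences of CLB3 and AMA1 between WT or CUP1_WT and pho92_null had adjusted p from 0.017 to 0.0905 by limma, on both sides of the threshold.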
